A study of Mus musculus with 6 samples.

Results

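The tropomyosins, tropomodulins and leiomodins are the proteins that lie along actin filaments or sit at their slow-growing, pointed end, and 10 of their genes were chosen by symbol: *Tpm1*, *Tpm2*, *Tpm3*, *Tpm4*, *Tmod1*, *Tmod2*, *Tmod3*, *Tmod4*, *Lmod2* and *Lmod3*. All 10 were found among the 55401 genes of the count matrix, each on 1 row. RNA-seq had been performed on cells of the mouse myoblast line C2C12, which fuse to myotubes when serum is lowered, to ask how the loss of *Phf2*, a gene for a histone H3K9me2 demethylase, alters transcription. The control group held 3 libraries labelled wild type, which the methods describe as mock cells that received a Cas9 plasmid with a ZsGreen reporter and a guide without a match in the mouse genome. The *Phf2* KO group held 3 libraries of cells that received a pool of 4 guide RNAs against *Phf2* in the same kind of plasmid. In both groups the fluorescent cells were sorted, expanded and frozen without single-cell cloning, so each group was 1 mixed pool, and the cells of every library were then kept in medium with 2% horse serum and harvested 2 d post differentiation. The replicates were wells of a single experiment, so the p-values measure the spread between wells, and differences between the pools cannot be told apart from effects of *Phf2*.

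Tropomyosins are coiled-coil proteins that bind along both sides of an actin filament. In striated muscle they carry the troponin complex and block or expose the myosin-binding sites, while other isoforms made from the same genes stabilise filaments of the cytoskeleton. Tropomodulins bind tropomyosin and the last actin subunits at the pointed end and cap it, and leiomodins are larger relatives that nucleate actin filaments and let them lengthen at that end. In skeletal muscle, mutations in several of these genes are known from nemaline and related congenital myopathies.

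The libraries held between 52526109 and 67502788 estimated counts, and the 10 most abundant genes took 6.88% to 7.24% of them. *Phf2* mRNA was present at 102.4, 95.5 and 104.6 CPM in control replicates 1, 2 and 3 and at 41.1, 37.6 and 38.6 CPM in the KO replicates, where CPM is the count scaled to a common library size after TMM normalization. The KO mean was 38.8% of the control mean (log2 fold change -1.37, SE 0.055, adjusted p = 8.32e-09 by the quasi-likelihood test of edgeR, Benjamini-Hochberg over all genes tested). Of 7 myotube markers, 5 were lower in *Phf2* KO cells with edgeR's quasi-likelihood test (beside 3.26% of all genes tested), 6 with DESeq2 and with limma-voom, and 7 with exactTest. Their summed level ran from 6821 to 8108 CPM in the control libraries and from 5347 to 5823 CPM in the KO libraries, with the lowest control value in replicate 3. Of 6 markers of undifferentiated or cycling myoblasts, 0 passed with edgeR's quasi-likelihood test, 0 at an unadjusted p under 0.05, and 0 with DESeq2, exactTest or limma-voom. Their summed level was 207.9 to 226.1 CPM in control and 206.2 to 227.4 CPM in *Phf2* KO cells, with *Pax7* under 1 CPM. Of 5 smooth muscle markers, 1 passed with the quasi-likelihood test, *Acta2* (higher), 1 with limma-voom, 3 with DESeq2 and 0 with exactTest. The sums of the list, 3189 to 3252 CPM against 3493 to 3663 CPM, are mostly *Acta2* (means of 3029 and 3400 CPM), whereas the median log2 fold change of the list was -0.06, *Cnn1* stood lower in every KO library (-0.52, adjusted p = 0.0781 by edgeR's quasi-likelihood test), and the defining gene *Myh11* was under 1 CPM. The endothelial list summed to 0.206 to 0.790 CPM in control and 0.192 to 0.495 CPM in KO cells, and the macrophage list to 1.51 to 1.88 and 1.42 to 1.87 CPM with *Adgre1* at 0. The adipocyte list reached at most 0.240 CPM in control and 0.0650 CPM in KO cells, with *Plin1* at 0. The myotube markers moved with several of the genes described here, and their part in those results was not tested. In such bulk RNA, fewer differentiated cells and less RNA per cell cannot be told apart.

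Of the 10 genes, all passed the filter on low counts and 5 passed the threshold of an adjusted p under 0.05. *Tpm4* and *Tmod3* were higher in *Phf2* KO cells, and *Tpm2*, *Tmod1* and *Lmod3* were lower. Among all 17310 genes tested, 6.48% passed, 3.22% as higher and 3.26% as lower. The control and KO libraries did not overlap for 6 of the 10, the 5 named and *Tpm1*, whereas this held for 25.1% of all genes tested. The log2 fold changes of the 10 genes ranged from -0.59 to 0.61 with a median of -0.13, beside a median of -0.00096 over all genes tested. Both the tropomyosins and the tropomodulins held a gene that rose and a gene that fell.

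**Figure D1:**
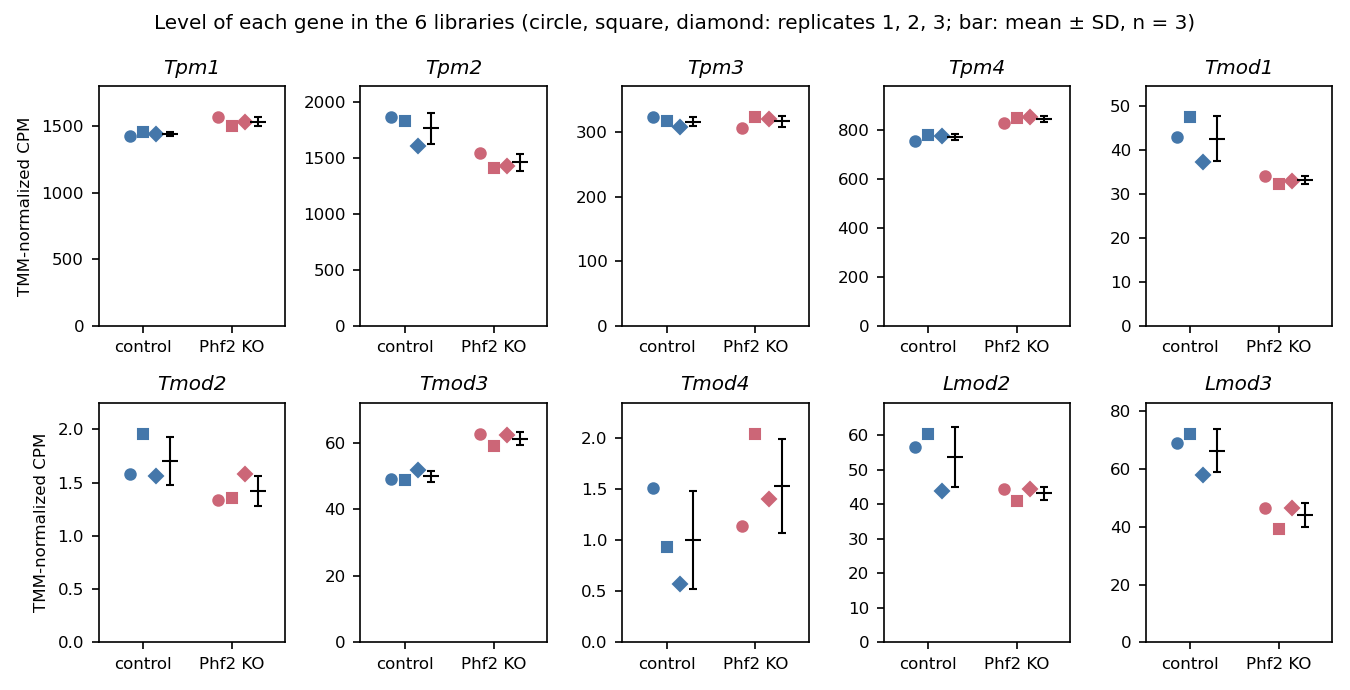
Level of each gene in TMM-normalized CPM (vertical axis, from 0, scaled for each gene) in the 3 control and the 3 *Phf2* KO libraries; circles, squares and diamonds are replicates 1, 2 and 3, and the bar beside them is the mean ± SD. All 3 KO libraries lie below all 3 control libraries for *Tpm2*, *Tmod1* and *Lmod3*, and above them for *Tpm1*, *Tpm4* and *Tmod3*.

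Per length, the tropomyosins were the most abundant of the 10 genes. On the TPM scale, which divides by transcript length so that genes can be set side by side, *Tpm1* stood at 1914 ± 24.8 (SD, n = 3) and *Tpm2* at 1816 ± 128.5 in control cells, and their libraries overlapped. *Tpm4* followed at 767.7 ± 11.7 and *Tpm3* at 301.9 ± 14.0 TPM, each apart from its neighbours in the order. The leiomodins came next, *Lmod3* at 64.6 ± 6.93 and *Lmod2* at 58.4 ± 9.17 TPM, with overlapping libraries. *Tmod1* at 33.0 ± 2.21 and *Tmod3* at 29.3 ± 1.37 TPM overlapped as well, and *Tmod4* at 1.77 ± 1.44 and *Tmod2* at 0.164 ± 0.0176 TPM closed the order. In *Phf2* KO cells *Tpm1* (1953 ± 50.7 TPM) lay above *Tpm2* (1480 ± 66.5 TPM) in every library. *Tmod3* (36.7 ± 0.634 TPM) likewise lay above *Tmod1* (20.7 ± 7.75 TPM), and *Lmod2* (47.6 ± 2.52 TPM) and *Lmod3* (43.3 ± 4.41 TPM) overlapped.

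*Tpm2* encodes beta-tropomyosin, a striated muscle form that is prominent in slow fibres and is also made in smooth muscle and other cells. It lies on the minus strand at chr4:43514711-43523765 (mm10), and GENCODE M21 gives it 6 transcripts, 4 of them protein-coding. The counts sum over transcripts, so forms made from the same gene were not separated. *Tpm2* was at 1867, 1831 and 1608 CPM in control replicates 1, 2 and 3 and at 1552, 1411 and 1429 CPM in the KO replicates. Every KO library lay below every control library, although control replicate 3 and KO replicate 1 lay close together. The mean fell from 1769 ± 140.5 to 1464 ± 76.7 CPM, 82.8% of control (log2 fold change -0.27, SE 0.058, adjusted p = 0.0209 by edgeR's quasi-likelihood test). The call was lost without control replicate 1 (adjusted p = 0.101 by the same test), control replicate 2 (0.0840), KO replicate 2 (0.0778) or KO replicate 3 (0.202), and the sign stayed negative in each.

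The sequence before the RefSeq start of *Tpm2* is shown because it was the tropomyosin that fell, and that of *Tpm4* because that gene rose. Both come from the RefSeq promoter windows of build GRCm38.p6, cut to the 250 bases upstream of the start and then to bases that no exon of the gene covers in GENCODE M21, for *Tpm2* those upstream of every exon and for *Tpm4* those between the first exons of its 2 transcripts. They read in the direction of transcription. Capitals mark the E-box CAGCTG, a hexamer that myogenic regulatory factors are known to bind. The *Tpm2* stretch spans 39 bases at chr4:43523766-43523804 on the minus strand, and the *Tpm4* stretch spans 209 bases at chr8:72135050-72135258 on the plus strand.
Tpm2: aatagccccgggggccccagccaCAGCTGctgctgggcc
Tpm4: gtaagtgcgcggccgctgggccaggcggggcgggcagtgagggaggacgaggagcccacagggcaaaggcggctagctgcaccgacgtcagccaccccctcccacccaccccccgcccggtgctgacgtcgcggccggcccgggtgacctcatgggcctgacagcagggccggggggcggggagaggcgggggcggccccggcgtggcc
The *Tpm2* match begins 227 bases before the RefSeq start at chr4:43523554. That start lies inside the gene as given by GENCODE M21, which begins at chr4:43523765 on this strand, so the match is closer to the latter. The *Tpm4* stretch, before the RefSeq start at chr8:72135288, also lies inside its gene. *Tpm4* begins at chr8:72134975 in GENCODE M21 and at chr8:72130174 in the deposited tables. A CAGCTG on either strand stood in 13% of 32851 promoter windows of the same length. The 250-base *Tpm4* window held none of the motifs searched on either strand, which were the general E-box CANNTG (in 66.2% of all windows, the CAGCTG matches included), the M-CAT motif CATTCC (12.6%), the TATA box TATAAA (12.4%), the CArG box (1.47%) and the MEF2 site (2.92%). GC bases made up 69.6% of the *Tpm2* window and 78.8% of the *Tpm4* window. Windows were in the table for 8 of the 10 genes, 10 windows in all, and none of them held TATAAA, a CArG box or a MEF2 site. A CAGCTG also stood in a window of *Tpm3* and in one of *Tmod2*, genes that did not pass the test. The windows of *Tpm1*, *Tmod1*, *Tmod4* and *Lmod2* held none, although *Tmod1* was among the genes that fell. These matches describe letters in the windows, and binding was not measured in these data.

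*Tpm4*, the tropomyosin of the cytoskeleton in many non-muscle and smooth muscle cells, was at 755.4, 777.3 and 776.5 CPM in control replicates and at 829.7, 848.7 and 851.5 CPM in KO replicates. The groups were narrow and lay apart. Its mean rose from 769.7 ± 12.4 to 843.3 ± 11.9 CPM, 109.6% of control (log2 fold change 0.13, SE 0.035, adjusted p = 0.0401 by edgeR's quasi-likelihood test), which was the smallest change among the genes that passed. The call ended with exactTest (adjusted p = 0.247), upper-quartile normalization (0.0620 by the quasi-likelihood test) or no filter (0.0577), and also without control replicate 1 (0.112), control replicate 2 (0.136), KO replicate 2 (0.166) or KO replicate 3 (0.0744). The deposited tables place the gene at chr8:72130174-72153142 on the plus strand. Of its 150-base stretches, 5.11% also occurred in the pseudogene *Gm7809*, and *Gm26586* and *Gm16091* overlap it on the opposite strand.

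*Tpm1*, which encodes alpha-tropomyosin of fast and cardiac muscle and several cytoskeletal forms, was at 1429, 1458 and 1442 CPM in control replicates and at 1566, 1499 and 1531 CPM in KO replicates. Its libraries did not overlap on this scale, but the change from 1443 ± 14.7 to 1532 ± 33.5 CPM did not pass the test (log2 fold change 0.09, SE 0.033, adjusted p = 0.161 by edgeR's quasi-likelihood test). On the TPM scale the KO and control libraries of *Tpm1* overlapped. The gene lies at chr9:67022590-67049406 on the minus strand and has 21 transcripts in GENCODE M21, 16 of them protein-coding, the most of the 10 genes. *Tpm3*, the alpha-tropomyosin of slow fibres and a source of cytoskeletal forms, lies at chr3:90072649-90100902 on the plus strand. It was at 323.5, 317.5 and 309.0 CPM in control replicates and at 307.5, 323.4 and 320.7 CPM in KO replicates, and these values overlapped. The log2 fold change was 0.0024 (SE 0.041, adjusted p = 0.987 by edgeR's quasi-likelihood test), and its sign depended on the scaling and the filter. Of the 150-base stretches of *Tpm3*, 10.2% also occurred in the retrocopy *Tpm3-rs7*, whose own log2 fold change was -0.11 (SE 0.074, adjusted p = 0.475 by the same test), so reads could be split between them.

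The make-up of the tropomyosin mRNA pool was compared as the share of each gene in the summed TPM of *Tpm1* to *Tpm4*. The share of *Tpm2* was 39.3%, 38.1% and 36.0% in control replicates and 33.5%, 31.6% and 31.7% in KO replicates, a fall from 37.8 ± 1.65% to 32.3 ± 1.09% without overlap. The share of *Tpm1* was higher in every KO library (39.9 ± 0.890% in control, 42.6 ± 0.0876% in KO), and so was that of *Tpm4* (16.0 ± 0.650% against 18.6 ± 0.638%). *Tpm3* held 6.29 ± 0.233% in control and 6.52 ± 0.405% in KO cells with overlapping libraries. For *Tpm1*, *Tpm2* and *Tpm4* the two-sided exact permutation test gave p = 0.1 each, the smallest that 3 libraries against 3 can give, and for *Tpm3* the exact p was 0.4. These shares sum to 100 within a library and are not independent of each other, so 1 falling share raises the others. TPM was also deposited for assembled loci, an alternative chosen after seeing the data, with reference rows standing in for *Tpm4*. There the changes were smaller: the mean share of *Tpm2* went from 39.3% in control to 35.8% in KO cells. That of *Tpm1* went from 38.6% to 40.1%, and that of *Tpm4* from 15.5% to 17.5%. On these loci the level of *Tpm2* itself overlapped between the groups. Control replicate 3 was at 1787 TPM and KO replicate 1 at 1815 TPM.

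**Figure D2:**
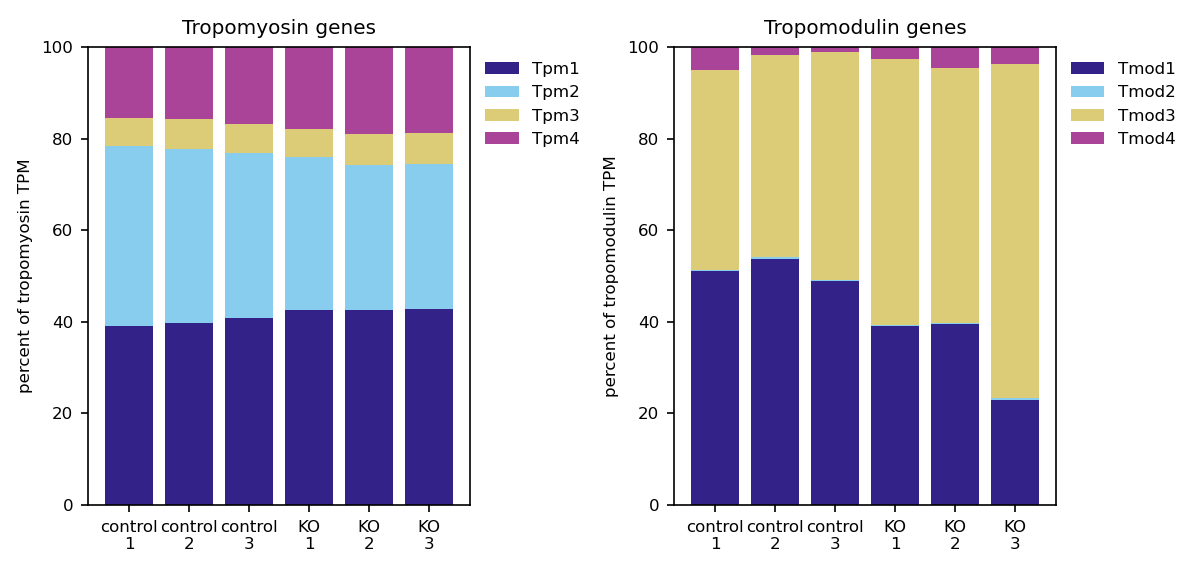
Share of each gene in the summed TPM of its family (vertical axis, percent, stacked to 100) in the 6 libraries, with tropomyosins on the left and tropomodulins on the right. *Tpm2* takes 36.0% to 39.3% of the tropomyosin TPM in control and 31.6% to 33.5% in *Phf2* KO libraries, and *Tmod1* takes 48.9% to 53.8% of the tropomodulin TPM in control and 23.0% to 39.5% in KO libraries, with the lowest value in KO replicate 3.

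*Tmod1*, which caps thin filaments in striated muscle and the short actin filaments of red blood cells, was at 43.1, 47.5 and 37.3 CPM in control replicates and at 34.1, 32.3 and 33.1 CPM in KO replicates. The KO libraries were tight and all lay below the controls, of which replicate 3 was the lowest. The mean fell from 42.7 ± 5.09 to 33.2 ± 0.904 CPM, 77.8% of control (log2 fold change -0.36, SE 0.080, adjusted p = 0.0145 by edgeR's quasi-likelihood test). The call was lost without control replicate 2 (0.0950), KO replicate 2 (0.0768) or KO replicate 3 (0.0740). It was also lost with limma on log2 TPM at a pseudocount of 1, where the log2 fold change was -0.72 (adjusted p = 0.293). The gene lies at chr4:46038935-46116032 on the plus strand, and 29.2% of its 150-base stretches lie in *Tstd2*, which overlaps its end on the opposite strand over 1287 bases. The library kit was directional, but whether the counting used the strand is not given in the sources used here. *Tstd2* itself had a log2 fold change of 0.04 (SE 0.065, adjusted p = 0.827 by the same test).

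*Tmod3*, the tropomodulin found in most cell types and in the non-sarcomeric actin of muscle, moved the other way. It was at 49.1, 48.9 and 51.9 CPM in control replicates and at 62.7, 58.9 and 62.2 CPM in KO replicates. The groups lay well apart, and the mean rose from 49.9 ± 1.69 to 61.3 ± 2.07 CPM, 122.7% of control (log2 fold change 0.30, SE 0.054, adjusted p = 0.00446 by edgeR's quasi-likelihood test). The call held without each library in turn, with adjusted p-values of the same test of at most 0.0388. *Tmod3* lies on the minus strand at chr9:75497707-75559657, and *Tmod2* lies 5963 bases before it on the same strand at chr9:75565621-75611325.

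*Tmod2*, known as the neuronal tropomodulin, was at 1.58, 1.96 and 1.56 CPM in control and 1.33, 1.35 and 1.58 CPM in KO replicates, which rests on 71 to 114 estimated counts per library. These ranges overlapped (log2 fold change -0.26, SE 0.25, adjusted p = 0.658 by edgeR's quasi-likelihood test). *Tmod4*, the tropomodulin of mature skeletal muscle, at chr3:95124476-95129209, was at 1.51, 0.927 and 0.567 CPM in control and at 1.14, 2.04 and 1.40 CPM in KO replicates, from 33 to 107 estimated counts. Its log2 fold change was 0.61, but with an SE of 0.37 and an adjusted p of 0.414 by the same test a difference was not detectable at this depth. The value moved to 1.02 without control replicate 1, 0.32 without control replicate 3 and 0.35 without KO replicate 2. Of the summed tropomodulin TPM, *Tmod2* held 0.255 ± 0.0324% in control and 0.231 ± 0.0615% in KO cells, and *Tmod4* held 2.71 ± 2.11% and 3.65 ± 0.895%. Both shares overlapped between the groups (two-sided exact permutation p = 0.6 and 0.5).

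Within the summed tropomodulin TPM, the share of *Tmod1* was 51.2%, 53.8% and 48.9% in control replicates and 39.2%, 39.5% and 23.0% in KO replicates. That of *Tmod3* was 43.5%, 44.1% and 49.6% in control and 57.9%, 55.8% and 72.9% in KO replicates. Neither share overlapped between the groups, so *Tmod1* was the larger of the pair in control replicates 1 and 2, the 2 were nearly level in replicate 3, and *Tmod3* was the larger in every KO library (two-sided exact permutation p = 0.1 for each, the smallest possible). The low *Tmod1* value of KO replicate 3 was that of the reference rows. There the reference row gave 11.8 TPM beside 24.9 and 25.5 TPM in KO replicates 1 and 2. The assembled locus of the same position gave 31.6 TPM beside 28.8 and 28.6 TPM. In control replicates 1, 2 and 3 this locus gave 35.4, 37.1 and 31.8 TPM. On it KO replicate 3 was thus nearly level with control replicate 3. The count in KO replicate 3 was level with its group at 33.1 CPM. With the assembled loci, an alternative chosen after seeing the data, the mean share of *Tmod1* went from 52.4% to 42.7% and that of *Tmod3* from 44.8% to 53.4%, again without overlap. No assembled locus matched *Tmod2* in any library, and one matched *Tmod4* in KO replicate 3 alone, so reference rows stood in for them elsewhere and these shares mix both kinds of row. Without KO replicate 3 the KO mean shares on the reference rows were 39.3% for *Tmod1* and 56.9% for *Tmod3*.

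*Lmod3*, a leiomodin of skeletal muscle that is mutated in a severe nemaline myopathy, changed most among the genes that passed. It was at 69.0, 72.2 and 57.9 CPM in control replicates and at 46.5, 39.2 and 46.5 CPM in KO replicates. Even the lowest control library, replicate 3, stood above the highest KO library. The mean fell from 66.4 ± 7.52 to 44.1 ± 4.19 CPM, 66.4% of control (log2 fold change -0.59, SE 0.091, adjusted p = 0.00400 by edgeR's quasi-likelihood test), and the call held without each library in turn, with adjusted p-values of at most 0.0282. The gene lies at chr6:97238534-97252759 on the minus strand and has 1 transcript in GENCODE M21. The annotation behind the counts is not given in the sources used here. No 150-base stretch of *Lmod3* was shared with another gene.

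*Lmod2*, the leiomodin that is strongest in heart and also made in skeletal muscle, lies on the same chromosome at chr6:24597762-24605414 and likewise has 1 transcript. It was at 56.6, 60.3 and 43.7 CPM in control replicates and at 44.2, 41.0 and 44.3 CPM in KO replicates. Control replicate 3 fell among the KO libraries, while the other controls lay above them. The change from 53.5 ± 8.72 to 43.2 ± 1.88 CPM did not pass the test (log2 fold change -0.31, SE 0.11, adjusted p = 0.153 by edgeR's quasi-likelihood test), but it passed without control replicate 3 (0.00126) and with DESeq2 on all libraries (adjusted p = 0.0186). Its upstream sequence is given for the leiomodins, 241 bases before the first exon at chr6:24597521-24597761 on the plus strand, from RefSeq (GRCm38.p6). It is printed without capitals because its window held 1 match of the general E-box CANNTG and none of the other motifs.
Lmod2: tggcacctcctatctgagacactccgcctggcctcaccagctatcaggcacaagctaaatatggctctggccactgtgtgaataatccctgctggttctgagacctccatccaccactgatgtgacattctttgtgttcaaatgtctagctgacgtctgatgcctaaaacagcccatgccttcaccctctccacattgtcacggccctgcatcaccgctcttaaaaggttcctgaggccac
A control library that stood low in *Tpm2*, *Tmod1*, *Lmod2* and *Lmod3* was the same in each case, replicate 3, and this library also had the lowest sum of myotube markers among the controls, 6821 CPM beside 7976 and 8108 CPM.

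**Figure D3:**
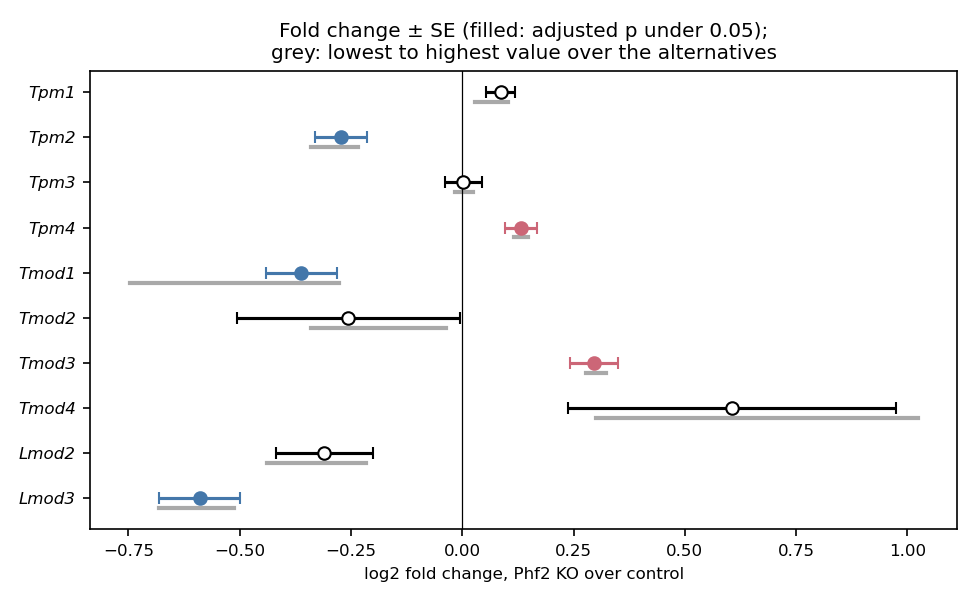
Log2 fold change of each gene, *Phf2* KO over control (horizontal axis), with its SE; filled points passed an adjusted p under 0.05, and the grey line below each spans the values over the alternative settings. *Lmod3* (-0.59) and *Tmod3* (0.30) are the called genes whose sign and call held in every count-based setting, while the interval of *Tpm3* crosses 0.

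Between families, the summed tropomodulin TPM per 100 tropomyosin TPM was 1.37, 1.30 and 1.34 in control and 1.38, 1.45 and 1.09 in KO replicates, which overlapped (exact permutation p = 1.0), and the lowest value was again that of KO replicate 3. The sign of this difference turned in other settings, including without KO replicate 3 (a difference of 0.0762). The tropomyosin TPM per 100 actin TPM, with 6 actin genes summed, was 33.4, 34.0 and 33.3 in control and 30.9, 31.2 and 32.6 in KO replicates. Every KO library lay below the controls, with means of 33.6 ± 0.376 and 31.6 ± 0.905 (exact permutation p = 0.1, the smallest possible). Neither sum parted the groups by itself. Tropomyosin ran from 4635 to 4897 TPM in control and from 4463 to 4689 TPM in KO libraries, and actin from 13926 to 14573 and from 14313 to 14863 TPM. Of the 6 actin genes, 4 passed as higher, beside 3.22% of all genes tested. The sarcomeric *Acta1* (log2 fold change -0.36) and *Actc1* (-0.34) did not pass. The 2 leiomodins together summed to 123.0 ± 16.1 TPM in control and 90.9 ± 6.89 TPM in KO cells.

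The partners of these proteins were read from 2 lists of genes, chosen with earlier results of these data known. The authors had already listed *Klhl40*, *Neb* and *Tnnc2* among the genes lower in *Phf2* KO cells. The counts below are therefore descriptions and no independent evidence. Among 14 tested genes of the sarcomeric thin filament (sarcomeric actins, troponins, nebulin and the Kelch proteins that stabilise the filament), 8 were lower in *Phf2* KO cells, beside 3.26% of all genes tested, and the median log2 fold change was -0.44. *Klhl40*, which protects LMOD3 protein and nebulin from degradation, went from 30.8 ± 3.50 to 18.3 ± 0.933 CPM (log2 fold change -0.76, SE 0.090, adjusted p = 0.000203 by edgeR's quasi-likelihood test). *Neb*, the giant ruler along the thin filament, went from 680.6 ± 63.5 to 439.6 ± 40.5 CPM (-0.63, SE 0.087, adjusted p = 0.00706), a call that was lost with the replicate number as a block (adjusted p = 0.123) or without KO replicate 1 (0.0518). The *Neb* call was also lost with limma on log2 TPM at a pseudocount of 1 (adjusted p = 0.0501). The fast troponin C gene *Tnnc2* went from 238.4 ± 21.7 to 155.8 ± 6.97 CPM (-0.61, SE 0.063, adjusted p = 0.000123). The count of 8 became 13 without control replicate 3 and 5 without control replicate 1, KO replicate 2 or KO replicate 3. *Tpm2*, *Tmod1* and *Lmod3* had the sign of this list, with *Lmod3* the nearest to these 3 genes in size. Of the 10 genes, 5 had a log2 fold change above 0, namely *Tpm1*, *Tpm3*, *Tpm4*, *Tmod3* and *Tmod4*.

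Among 21 genes of actin filament ends and turnover (cappers, cofilins, profilins, formins, cytoplasmic actins and others), 6 were higher and 1 was lower, beside 3.22% and 3.26% of all genes tested, and the median log2 fold change was 0.05. *Wdr1*, a cofactor of cofilin in filament disassembly, rose from 410.5 ± 7.34 to 496.2 ± 6.70 CPM (log2 fold change 0.27, SE 0.038, adjusted p = 0.000676 by edgeR's quasi-likelihood test). Its call was lost with limma on log2 TPM at a pseudocount of 1 (adjusted p = 0.199) or 0.1 (0.196), and so were those of *Fhod1* and *Cap2*. The formin gene *Fhod1* rose from 73.3 ± 5.14 to 88.2 ± 4.52 CPM (0.27, SE 0.058, adjusted p = 0.0147), and its call was lost without control replicate 2 (0.0960), control replicate 3 (0.0525) or KO replicate 2 (0.0830). *Cap2*, a cyclase-associated protein of striated muscle, was the gene that fell, from 13.0 ± 1.75 to 8.87 ± 1.56 CPM (-0.55, SE 0.14, adjusted p = 0.0355). This single lower call was lost with limma-voom (adjusted p = 0.0603) and without control replicate 1 (0.127), control replicate 2 (0.178), KO replicate 2 (0.133) or KO replicate 3 (0.159). The count of 7 became 3 without control replicate 2 or KO replicate 2. *Lmod1*, the leiomodin of smooth muscle and a gene of this list named after its values were seen, was at 42.3 ± 4.82 CPM in control and 50.8 ± 4.10 CPM in KO cells (0.26, SE 0.084, adjusted p = 0.0937 by the same test).

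**Figure D4:**
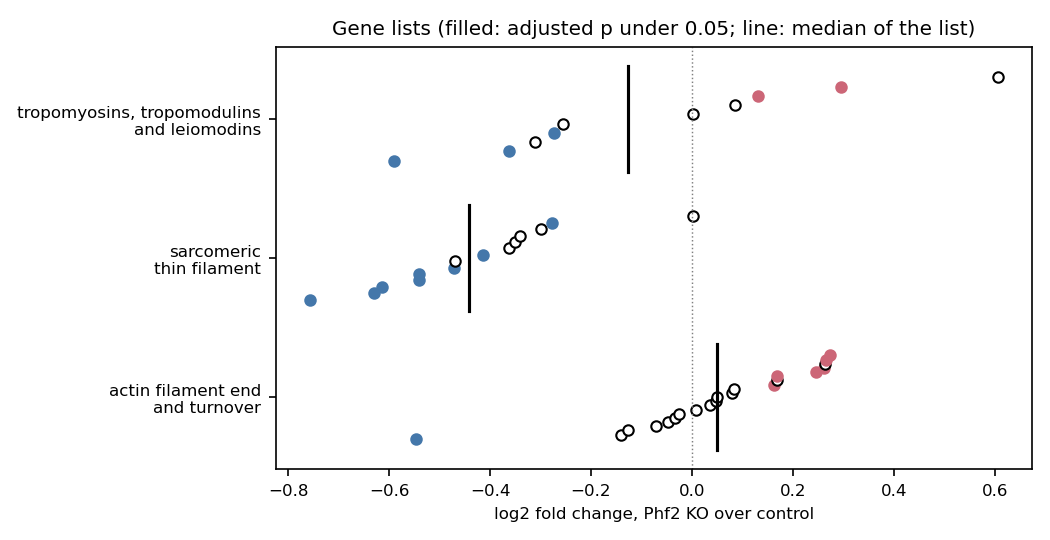
Log2 fold changes, *Phf2* KO over control (horizontal axis), of the 10 genes and of the 2 gene lists; each point is a gene, filled where the adjusted p was under 0.05, and the vertical bar is the median of the list. The medians are -0.13 for the 10 genes, -0.44 for the sarcomeric thin filament and 0.05 for filament ends and turnover.

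The level of *Lmod3*, the gene of the 10 with the smallest p, was also set beside that of the 10917 genes whose mean reached 5 CPM. Over the 6 libraries its log2 CPM ran most alike with *Adssl1* (Pearson r = 0.994), *Pstpip1* (0.994), *Actn2* (0.993), *Msi2* (0.993) and *Usp4* (0.993). *Actn2* encodes the alpha-actinin of the sarcomeric Z-disc, and *Adssl1* encodes the muscle form of adenylosuccinate synthase. These values are descriptions over 6 points that share their libraries and fall into 2 groups. The genes around the 10 were read as well. Within 100 kb, 2 of 55 tested neighbours passed the test (3.64%, beside 6.48% of all genes). They were *Arl6ip5*, 5219 bases from *Lmod3* (log2 fold change -0.22, adjusted p = 0.00499 by edgeR's quasi-likelihood test), and *Mllt11*, 89926 bases from *Tmod4* (-0.30, adjusted p = 0.0285), both named after their values were seen.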

How the data were processed

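RNA-seq libraries of 3 control and 3 *Phf2* KO wells were compared. Reads (paired-end, 150 bp) were aligned by the authors using HISAT2 and build mm10, and StringTie gave the gene values. Versions and annotation are not given in the sources used here. Estimated counts, whole numbers in the deposited matrix, stood for a median of 74.98 to 74.99 covered bases each, so a read pair adds about 4 counts and counting noise is understated. TPM values, a signal scaled by the authors, are deposited per library for reference genes and again for assembled loci. Rows of reference genes were used, whose TPM summed to between 976993 and 984559.

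After filterByExpr at a minimum count of 10 and TMM scaling, 17310 genes were tested in R 4.3.3 (edgeR 4.0.16, quasi-likelihood, Benjamini-Hochberg), with a threshold of 0.05. The common biological coefficient of variation was 0.135. TPM shares and ratios were tested by exact permutation of the libraries, two-sided (scipy 1.17.1). Shared sequence was counted as 150-base stretches of GENCODE M21 transcripts (GRCm38, the same assembly as mm10). Named outside the 10 genes by a fixed rule were *Phf2* and the 3 called genes with the largest change of each list. The rule also gave the 5 genes most like the member with the smallest p. Other genes were named as single markers, as actins, or because they overlap or share sequence with a member. *Lmod1*, *Arl6ip5* and *Mllt11* were named after their values were seen. The members and lists were chosen with earlier results of these data known. The code was tested on simulated data.

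The labels give replicate numbers and do not state that the numbers pair the samples. Deviations from the group mean of same-numbered libraries correlated at 0.25, 0.236 and 0.158 across 10923 genes, and those of different numbers were all below 0. Deviations within a group sum to 0 for each gene. The values below 0 therefore follow largely from the others and are no separate evidence of pairing. The methods describe no pairing, so the block was an alternative. Other alternatives were exactTest, DESeq2 1.42.0, limma-voom (limma 3.58.1), other normalizations and filters, counts divided by 4, counts summed per symbol, limma on log2-transformed TPM with a pseudocount of 1 or 0.1, an adjusted p under 0.01 and leaving out each library. Assembled loci, matched at 90% reciprocal overlap, were added after seeing the data. Reference rows stood in where none matched: *Tpm4* and *Tmod2* in all libraries, and *Tmod4* in all but KO replicate 3.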

Additional observations from a re-analysis of the deposited data

How the results depend on the processing

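Of the 5 genes called, *Tmod3* and *Lmod3* kept their call without each library and lost it with limma on TPM. With limma on log2 TPM, at pseudocounts of 1 and 0.1, 0 of the 10 genes passed, although 6 had an unadjusted p under 0.05 under each pseudocount, and edgeR's quasi-likelihood test on counts called 5, exactTest 4 and DESeq2 6. On the 2 TPM scales, 158 and 178 of all genes passed, 3 and 4 of the thin filament list, and 1 and 1 of the turnover list. Under an adjusted p of 0.01, 472 of all genes, 2 of the 10 genes (*Tmod3* and *Lmod3*) and 5 of the thin filament list passed, and exactTest called 13 of that list. Leaving out each library gave 468 to 1039 of all genes, 2 to 6 of the 10 genes, 5 to 13 of the thin filament list and 3 to 7 of the turnover list. The cause of these shifts was not tested. With the replicate number as a block, the same 5 genes passed, and so did 1316 of all genes, and no call of the 10 genes changed. The log2 fold change of *Tpm3* turned negative with upper-quartile normalization (-0.0077), no filter (-0.0016), a CPM filter (-0.0012), counts divided by 4 (-0.00050) and both limma fits (-0.0157 and -0.0158), and ran from -0.0172 to 0.0249 without each library. The tropomodulin to tropomyosin ratio, which fell by 0.0316 in KO cells, was higher with counts in place of TPM (0.127) and with assembled loci, reference rows filling in for *Tpm4*, *Tmod2* and most of *Tmod4* (0.0918), and ran from -0.102 to 0.0762 without each library. The other shares kept their sign. For *Tmod2* and *Tmod4*, depth limits what could be seen, and isoforms were not separated.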

Other observations

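The CPM of each of the 10 genes was divided by its TPM in the same library. For *Tmod1* this ratio was 2.81 in KO replicate 3 and 1.23 to 1.38 in the other libraries. For *Tpm1* it was 0.750, 0.751 and 0.761 in control and 0.800, 0.788 and 0.765 in KO replicates, higher in every KO library. For the other genes the control and KO libraries overlapped in this ratio. Which transcripts of *Tpm1* made up its counts in each library was not analysed here.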
